A study of Mus musculus with 3 samples.

Results

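C-type lectin receptors of macrophages were examined in mouse bone marrow-derived macrophages (BMDMs) that had received 3 different stimuli. The group comprised 9 genes, Clec4e, Clec4d, Clec4n, Clec7a, Clec5a, Clec4a2, Clec12a, Clec10a, and Mgl2, and was found by gene name among the probes of the array that are not controls. These were 9 of the 33597 genes measured on all arrays, and the array design carried 34821 gene names. The rule that found them used gene names and no signal, but the members were chosen with earlier results of these data known.

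BMDMs of the C57BL/6J strain were grown from femoral and tibial marrow for 4 to 6 days with M-CSF at 10 units/ml, and were then stimulated for 20 h. The 3 conditions were CpG, a DNA ligand of TLR9; IFN-γ + αIL-10R, which the labels call IFN-g+IL-10RB and in which an antibody blocks the receptor for IL-10; and Triple, the combination of all of these agents. Each condition was measured on 1 Agilent 8 × 60K array, and no array of unstimulated BMDMs was analysed here. Without a second array of any condition, no difference has a replicate check, no test between conditions was possible, and differences between cultures cannot be told apart from those between stimuli.

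C-type lectin receptors are surface proteins with a carbohydrate recognition domain, and in macrophages and dendritic cells they bind sugars and lipids of fungi, mycobacteria, and damaged host cells. Mincle (Clec4e), MCL (Clec4d), and Dectin-2 (Clec4n) signal through the adaptor FcRγ, MDL-1 (Clec5a) signals through DAP12, and Dectin-1 (Clec7a) carries an activating motif of its own, after which the kinase Syk and the adaptor CARD9 lead to NF-κB. DCIR (Clec4a2) and MICL (Clec12a) carry inhibitory motifs instead, and the galactose-type lectins MGL1 (Clec10a) and MGL2 (Mgl2) are endocytic receptors known as markers of alternatively activated macrophages.

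All values are the processed signal, a background-subtracted brightness on a linear scale, given with the scanner software's error for the spot. Folds were taken after each array had been scaled to its own 75th percentile, and a member was called higher or lower past 2-fold if the brighter signal was well above background. Replicate spots of other probes that were well above background gave an SD of 0.08 to 0.10 (log2) within an array. This makes a technical SD of 0.12 to 0.13 for a log2 fold. Such noise covers the spots of 1 array and leaves out differences between arrays and between cultures. It may be too small for dim spots, where the scanner software's error was a larger share of the signal. That error was 7.80 of 47.7 for Clec10a in Triple, against 8138 of 81379 for Clec4d in Triple. Each member had 1 probe with 1 spot on each array, none was marked as an outlier, and the spots around each had median log2 folds between −0.12 and 0.08. Signals of different probes are not compared with each other, since brightness depends on the probe.

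The cells carried macrophage markers on all arrays. All 9 measured macrophage markers, among them Adgre1, Csf1r, and Cd68, were well above background on every array, and their summed signal was 873613 to 976854. Single markers differed more than this sum. Against IFN-γ + αIL-10R, Cd14 was called higher and Cd68 lower in Triple. In CpG, Cd14 and Itgam were called higher and Fcgr1 and Mertk lower. Mertk was also called higher in Triple than in CpG. The signal of Cd14 was 55389 in CpG, 5534 in IFN-γ + αIL-10R, and 90961 in Triple. Of 10 genes that respond to IFN-γ, 9 were called lower in CpG than in IFN-γ + αIL-10R. The signal of Gbp2 was 3111 in CpG, 239515 in IFN-γ + αIL-10R, and 252036 in Triple. Of 10 genes that respond to TLR ligands, 10 were called higher in Triple and 6 in CpG against IFN-γ + αIL-10R. The signal of Il6 was 319 in CpG, not well above background in IFN-γ + αIL-10R, and 24279 in Triple. Ptgs2 was the gene called lower in CpG, with signals of 142, 513, and 29014 in the same order.

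The last 30 bases of the 60-base probes are shown for the members whose values differed past 2-fold with both signals well above background, so that each value can be tied to what was hybridized. Capitals mark the letters AATAAA, the polyadenylation signal.
Clec4e: cgcaagtagaacctgctcagtaggttcaaa
Clec4d: aattggaagccctcgaagtgatccttgatg
Clec4n: tgttacttgaaagtataagatgAATAAAca
Clec10a: agcttattgtaggcaacttttgaatgtaac
Mgl2: tgtcgcaacAATAAAatttgagctttaatc
By the array's annotation on mm9, these probes lie on chromosome 6 at 123232878 to 123232937 (Clec4e), 123224788 to 123224847 (Clec4d), and 123196969 to 123197028 (Clec4n), and on chromosome 11 at 69984254 to 69984313 (Clec10a) and 69950985 to 69951044 (Mgl2). Their exon or UTR positions are not given in the sources used here. Over the 36 pairs of member probes, the longest run of bases that 2 probes shared was 9, and the probes of the neighbouring paralogs Clec10a and Mgl2 shared at most 7.

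Clec4e, Clec4n, and Clec4d, 3 neighbouring genes of the Dectin-2 cluster whose products couple to FcRγ, were far higher in both conditions that contained CpG than in IFN-γ + αIL-10R. Clec4e encodes Mincle, a receptor for the mycobacterial glycolipid trehalose dimycolate. Its signal was 408 ± 41.2 in IFN-γ + αIL-10R, 8215 ± 822 in CpG, and 67349 ± 6735 in Triple. The 3 arrays therefore ranked Triple, CpG, IFN-γ + αIL-10R, with every step beyond 2 technical SD. Against IFN-γ + αIL-10R, Clec4e was 169-fold higher in Triple (log2 fold 7.40), and 19.8-fold higher in CpG (4.31), and it was 8.52-fold higher in Triple than in CpG (3.09). BMDMs were profiled in bulk, and for each member fewer cells that express it and less RNA per cell cannot be told apart.

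Clec4n encodes Dectin-2, a receptor for fungal mannans, and followed the same order. The signal of Clec4n was 252 ± 25.9 in IFN-γ + αIL-10R, 2039 ± 204 in CpG, and 9227 ± 923 in Triple. Triple was again the highest array and IFN-γ + αIL-10R the lowest. Against IFN-γ + αIL-10R the folds were 37.4 in Triple (log2 fold 5.22) and 7.95 in CpG (2.99), and Triple was 4.70-fold above CpG (2.23).

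Clec4d encodes MCL, the partner with which Mincle forms a complex, and lies between Clec4n and Clec4e. Its signal was 10279 ± 1028 in IFN-γ + αIL-10R, 85568 ± 8557 in CpG, and 81379 ± 8138 in Triple. Here CpG and Triple were level, and both stood above IFN-γ + αIL-10R. The increase over IFN-γ + αIL-10R was 8.18-fold in CpG (log2 fold 3.03) and 8.09-fold in Triple (3.02). The log2 fold of Triple over CpG was −0.02, within 2 technical SD of 0, and its sign depended on the scaling, with a range of −0.11 to 0.06 over 12 other ways of processing. Thus, while the neighbours Clec4e and Clec4n were higher in Triple than in CpG, Clec4d was not past 2-fold between these arrays.

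**Figure D1:**
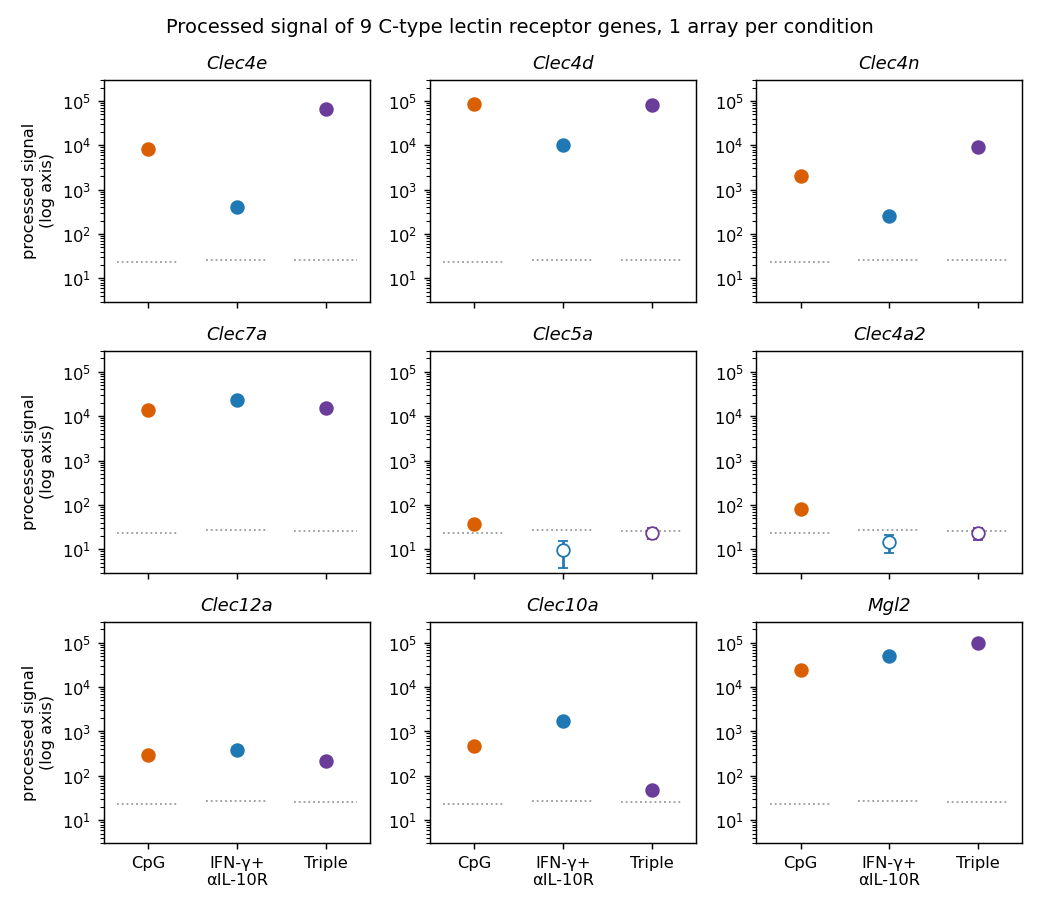
Processed signal (log axis) of each of the 9 genes in CpG, IFN-γ + αIL-10R, and Triple, 1 point per array with the scanner software's error, which is smaller than the point for bright spots; open points were not well above background, and dotted lines mark the lowest signal that was. Clec4e and Clec4n are lowest in IFN-γ + αIL-10R and highest in Triple, Clec4d is level in CpG and Triple, and Triple is the lowest array for Clec10a and the highest for Mgl2.

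Of the other activating receptors, Clec7a stayed short of 2-fold and Clec5a could not be called. Clec7a encodes Dectin-1, the receptor for fungal β-glucans. Its signal was 13481 ± 1348 in CpG, 22928 ± 2293 in IFN-γ + αIL-10R, and 15385 ± 1539 in Triple. IFN-γ + αIL-10R was the highest array, and CpG and Triple were neighbours in the order whose log2 fold of 0.25 lay within 2 technical SD of 0. The log2 folds over IFN-γ + αIL-10R were −0.54 in Triple and −0.79 in CpG, both short of the 2-fold threshold. Clec5a, which encodes MDL-1, a DAP12-coupled receptor of myeloid cells, was near the background on all arrays. Its signal was 36.5 ± 6.49 in CpG and was not well above background at 9.63 in IFN-γ + αIL-10R and 23.7 in Triple. For Clec5a, CpG was at least 1.35-fold above IFN-γ + αIL-10R (log2 fold 0.43) and at least 1.33-fold above Triple, which leaves it uncalled, and no fold of Triple over IFN-γ + αIL-10R can be given.

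The inhibitory receptors did not run together. Clec4a2 encodes DCIR, which carries an ITIM. Its signal was 80.4 ± 10.2 in CpG and was not well above background in IFN-γ + αIL-10R (14.9) or Triple (23.5). CpG was thus the array in which it could be measured, at least 2.96-fold above IFN-γ + αIL-10R (log2 fold 1.57) and at least 2.94-fold above Triple. No fold between the other arrays can be given. Because the bright array was itself dim for this probe, the call rests on the background correction: under normexp correction the log2 folds were 0.58 between CpG and IFN-γ + αIL-10R and −0.52 between Triple and CpG, neither past 2-fold. Clec12a encodes MICL, an inhibitory receptor for uric acid crystals. Its signal was 297 ± 30.3 in CpG, 374 ± 37.9 in IFN-γ + αIL-10R, and 215 ± 22.4 in Triple. The order was IFN-γ + αIL-10R, CpG, Triple, and the log2 folds against IFN-γ + αIL-10R (−0.77 in Triple, −0.36 in CpG) and that of Triple over CpG (−0.41) were all short of 2-fold.

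Clec10a and Mgl2, which are neighbours on chromosome 11, were both lower in CpG than in IFN-γ + αIL-10R and differed in opposite directions between Triple and CpG. Clec10a encodes MGL1 (CD301a). Its signal was 1753 ± 175 in IFN-γ + αIL-10R, 478 ± 48.2 in CpG, and 47.7 ± 7.80 in Triple. The order of the arrays was the reverse of that of Clec4e except that CpG was in the middle in both. Clec10a was 36.0-fold lower in Triple than in IFN-γ + αIL-10R (log2 fold −5.17), 3.73-fold lower in CpG than in IFN-γ + αIL-10R (−1.90), and 9.64-fold lower in Triple than in CpG (−3.27). Its signal in Triple was well above background but close to the lowest signal that was (26.3), and under normexp correction the log2 folds were −3.88 against IFN-γ + αIL-10R and −2.10 against CpG.

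Mgl2 encodes MGL2 (CD301b), which binds terminal N-acetylgalactosamine. Its signal was 24354 ± 2435 in CpG, 51331 ± 5133 in IFN-γ + αIL-10R, and 97240 ± 9724 in Triple. Triple was the highest array and CpG the lowest. Mgl2 was 2.14-fold lower in CpG than in IFN-γ + αIL-10R (log2 fold −1.10) and 4.15-fold higher in Triple than in CpG (2.05). The fold of Triple over IFN-γ + αIL-10R was 1.94 (log2 fold 0.95), just under the threshold, and it passed 2-fold under 3 of 12 other ways of processing. Both Mgl2 log2 folds against IFN-γ + αIL-10R lay within 2 technical SD of the 2-fold threshold.

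**Figure D2:**
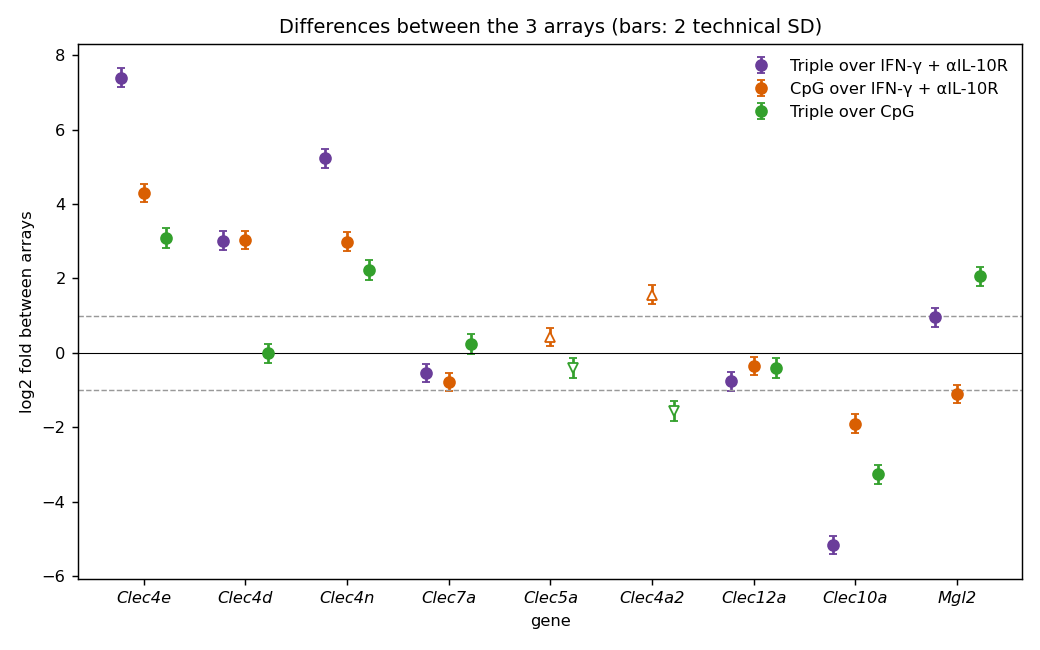
Log2 fold of each of the 9 genes (y axis, scaled arrays) for Triple over IFN-γ + αIL-10R, CpG over IFN-γ + αIL-10R, and Triple over CpG; bars span 2 technical SD to either side, open triangles are lower bounds against a signal not well above background, and dashed lines mark 2-fold. The largest of these log2 folds is 7.40 for Clec4e and the lowest is −5.17 for Clec10a, both for Triple over IFN-γ + αIL-10R. The technical SD comes from replicate spots well above background, so that the bars may be too short for dim genes.

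In counts, 3 of the 9 members (Clec4d, Clec4e, and Clec4n) were called higher in Triple than in IFN-γ + αIL-10R, against 3.53% of all genes, and 1 (Clec10a) was called lower, against 5.00%. In CpG over IFN-γ + αIL-10R, 4 members (Clec4a2, Clec4d, Clec4e, and Clec4n) were called higher, against 2.75% of all genes, and 2 (Clec10a and Mgl2) lower, against 3.18%. In Triple over CpG, 3 members (Clec4e, Clec4n, and Mgl2) were called higher, against 4.08%, and 2 (Clec4a2 and Clec10a) lower, against 4.55%. The 3 comparisons share arrays, so that an error in 1 array enters 2 of them. The member counts were above the background shares in each direction, but more of the members could be called. All 9 members were well above background in CpG, 7 in IFN-γ + αIL-10R, and 7 in Triple, whereas 44.4% to 46.0% of the spots were on each array. Only genes well above background in the brighter array can be called. The members were also chosen with earlier results of these data known, so that their counts are not independent of the data. The same shares of all genes apply to the counts of the other gene lists in these comparisons. Median log2 folds of the members were 0.95 for Triple over IFN-γ + αIL-10R, where 7 had a fold, 0.43 for CpG over IFN-γ + αIL-10R, where 9 had one, and −0.02 for Triple over CpG, where 9 had one, with 2 bounds among the folds in each of the last comparisons. Over the 15894 genes that every array measured above background, the medians were −0.04, −0.00, and −0.05. Clec7a, Clec5a, and Clec12a were the 3 members called in none of the comparisons.

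The genomic order of the Dectin-2 cluster placed the members beside their paralogs. Along chromosome 6 the array carried Clec4a1, Clec4a3, Clec4a4, Clec4b1, Clec4a2, Clec4b2, Clec4n, Clec4d, and Clec4e, in this order by probe position on mm9. Of these genes, 4 are members that were counted above. In CpG over IFN-γ + αIL-10R, 8 of these 9 genes were called higher and none lower, against 2.75% and 3.18% of all genes. The other, Clec4b2, was not well above background on any array. In Triple over IFN-γ + αIL-10R, 5 were called higher (Clec4a1, Clec4a4, Clec4n, Clec4d, and Clec4e), against 3.53% of all genes. In Triple over CpG, 2 were called higher (Clec4n and Clec4e) and 3 lower (Clec4a3, Clec4b1, and Clec4a2), against 4.08% and 4.55%. The stretch from Clec4a1 to Clec4a4 was added to the cluster after the members' values were known.

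Among these paralogs, the signal of Clec4b1 was 4134 in CpG, 947 in IFN-γ + αIL-10R, and 828 in Triple. That of Clec4a3 was 18683 in CpG, 7014 in IFN-γ + αIL-10R, and 6459 in Triple. For both, CpG stood above the other arrays, whose log2 fold lay within 2 technical SD of 0. A second probe of Clec4b1 gave the same order and a lower log2 fold for Triple over IFN-γ + αIL-10R, −1.14 against −0.16. The signal of Clec4a1 was 84561 in CpG, 35924 in IFN-γ + αIL-10R, and 85923 in Triple, so that CpG and Triple were level there as for Clec4d. Clec4a4 had signals of 268 in CpG, 31.1 in IFN-γ + αIL-10R, and 156 in Triple. How far RNA of 1 of these related genes binds to the probe of another was not tested, for the paralogs or for the 9 members. The member probes were compared only with each other, which does not show whether a probe matches another part of a related transcript.

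**Figure D3:**
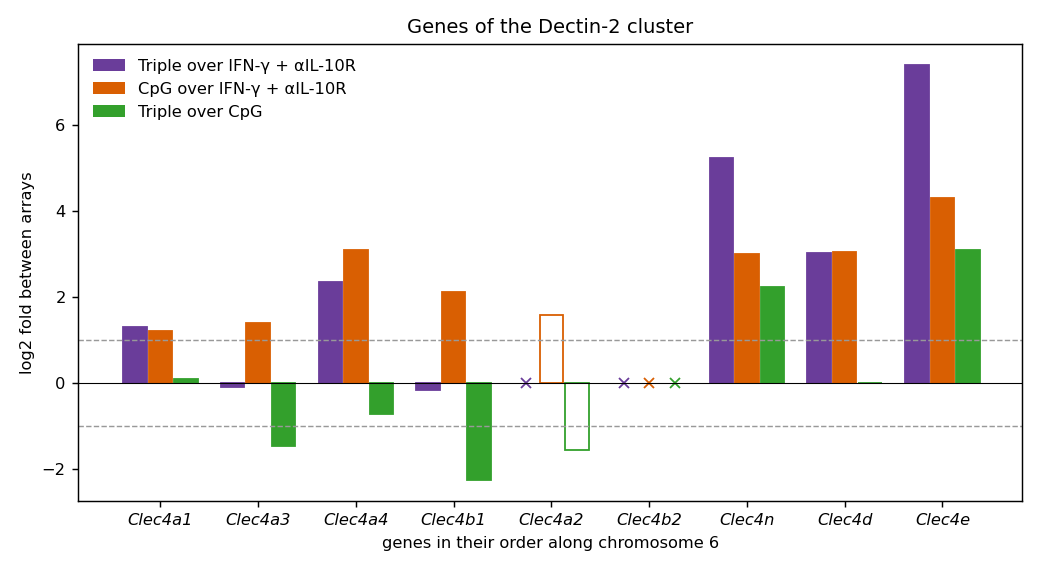
Log2 fold (y axis, scaled arrays) of the 9 genes of the Dectin-2 cluster in their order along chromosome 6 (x axis, not to distance), with 1 bar per comparison; open bars are lower bounds, crosses mark comparisons with no fold, and dashed lines mark 2-fold. Bars for CpG over IFN-γ + αIL-10R all point up, whereas those for Triple over CpG exceed 2-fold upward for Clec4n and Clec4e and downward for Clec4a3, Clec4b1, and Clec4a2.

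In the Dectin-1 cluster, which lies farther along chromosome 6 and holds Clec12a and Clec7a, both members stayed short of 2-fold, while Clec9a and a probe without a gene symbol, which lie between them, were called lower in Triple and in CpG than in IFN-γ + αIL-10R. The unnamed probe had a signal of 266 in IFN-γ + αIL-10R and was not well above background on the other arrays. The signal of Clec9a, a dendritic cell receptor for exposed actin filaments, was 1963 in IFN-γ + αIL-10R and 152 in Triple, and it was not well above background in CpG. Its log2 fold of Triple over IFN-γ + αIL-10R was −3.66. The 3 probes of Clec1b had log2 folds between −0.85 and 0.38 over all comparisons, and Clec12b and Clec1a were not well above background on any array. The Mgl2 and Clec10a pair in the RefSeq table of GRCm38.p6 has no other gene between its members, and their annotated intervals are 29081 bases apart. In the same table Clec4d and Clec4e are 6521 bases apart and also adjacent.

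Promoter sequence is shown for 3 members, the adjacent Clec4d and Clec4e, which were level and 8.52-fold higher, respectively, in Triple over CpG, and Mgl2, which was higher in Triple than in CpG while its neighbour was lower. The 250 bases before the start site are from RefSeq on GRCm38.p6, and 7 of 9 members were in the table, where Clec4n and Clec10a were not found. Capitals mark matches, on either strand, to TTGCNNAA (C/EBP), to GGG and CC with 5 free bases between them (NF-κB), and to GAGGAA (PU.1). TTCNNNGAA (STAT) and a repeat of GAAA with 2 free bases between (IRF) were also searched and were not found in these 3 sequences.
Clec4d, chr6:123261857-123262106, plus strand: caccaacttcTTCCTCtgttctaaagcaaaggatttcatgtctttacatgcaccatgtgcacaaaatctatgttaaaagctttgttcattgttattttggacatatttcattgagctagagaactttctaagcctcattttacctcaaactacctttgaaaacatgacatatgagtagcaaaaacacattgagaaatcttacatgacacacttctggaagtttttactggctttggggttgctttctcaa
Clec4e, chr6:123289872-123290121, minus strand: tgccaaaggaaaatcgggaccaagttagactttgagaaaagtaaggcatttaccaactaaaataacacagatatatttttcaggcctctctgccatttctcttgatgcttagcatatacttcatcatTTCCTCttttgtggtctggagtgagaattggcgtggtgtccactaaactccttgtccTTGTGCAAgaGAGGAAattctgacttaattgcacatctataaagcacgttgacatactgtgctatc
Mgl2, chr11:70130107-70130356, plus strand: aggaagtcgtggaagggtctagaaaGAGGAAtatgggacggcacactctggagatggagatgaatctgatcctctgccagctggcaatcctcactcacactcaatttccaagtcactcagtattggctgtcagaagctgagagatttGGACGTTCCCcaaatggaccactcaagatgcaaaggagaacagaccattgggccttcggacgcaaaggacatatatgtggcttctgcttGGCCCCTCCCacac
Clec4e had a C/EBP match 66 bases before its start and PU.1 matches at 123 and 56 bases. Clec4d had a PU.1 match at 240 bases, and Mgl2 had a PU.1 match at 225 bases and NF-κB matches at 103 and 14 bases. The annotated interval of Mgl2 begins at 70130125, so that its start site here lies inside the gene. Most of the Mgl2 window, with all of its matches, therefore overlaps the annotated gene. Of all 27025 promoters in the table, 9.55% held the C/EBP letters, 45.4% those of NF-κB, 23.1% those of PU.1, 7.18% those of STAT, and 3.04% those of IRF. No match overlapped another in these 3 sequences. A match describes letters and does not show that a factor binds there.

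Downstream of these receptors, the adaptor genes Fcer1g and Tyrobp stayed short of 2-fold in all comparisons, while the kinase gene Syk was past 2-fold in both comparisons with IFN-γ + αIL-10R. Of 26 genes of the signaling chain, from adaptors to NF-κB activation and its inhibitors, 25 were measured. In Triple over IFN-γ + αIL-10R, 4 were called higher (Syk, Malt1, Fgr, and Nlrp3), 1 lower (Vav3), and 20 neither. CpG over IFN-γ + αIL-10R had 3 higher (Syk, Vav1, and Fgr) and 1 lower (Nlrp3), and Triple over CpG had 2 higher (Malt1 and Nlrp3) and 0 lower. Over all genes, the shares called higher and lower were 3.53% and 5.00%, 2.75% and 3.18%, and 4.08% and 4.55%, in the same order. All 25 measured genes of the chain were well above background on at least 1 array. The median log2 folds of the chain were 0.27, 0.08, and 0.12 in the same order.

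Fcer1g, which encodes the FcRγ adaptor of Mincle, MCL, and Dectin-2, had a signal of 380315 in CpG, 383188 in IFN-γ + αIL-10R, and 417867 in Triple. Tyrobp, which encodes DAP12, had a signal of 199464 in CpG, 217992 in IFN-γ + αIL-10R, and 170344 in Triple. Neither was past 2-fold, with log2 folds of 0.16 and −0.32 for Triple over IFN-γ + αIL-10R. The signal of Syk, the kinase that binds the phosphorylated adaptors, was 32408 in CpG, 9302 in IFN-γ + αIL-10R, and 52628 in Triple. Syk thus had the array order of Clec4e and Clec4n, with log2 folds of 2.53 in Triple and 1.78 in CpG against IFN-γ + αIL-10R, and of 0.76 between Triple and CpG. Card9, the adaptor after Syk, had signals of 238 in CpG, 223 in IFN-γ + αIL-10R, and 134 in Triple. The log2 folds of Card9 were −0.71 in Triple against IFN-γ + αIL-10R and −0.77 in Triple against CpG, short of 2-fold. Nlrp3, the sensor of an inflammasome, had signals of 111, 298, and 658 in the same order.

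**Figure D4:**
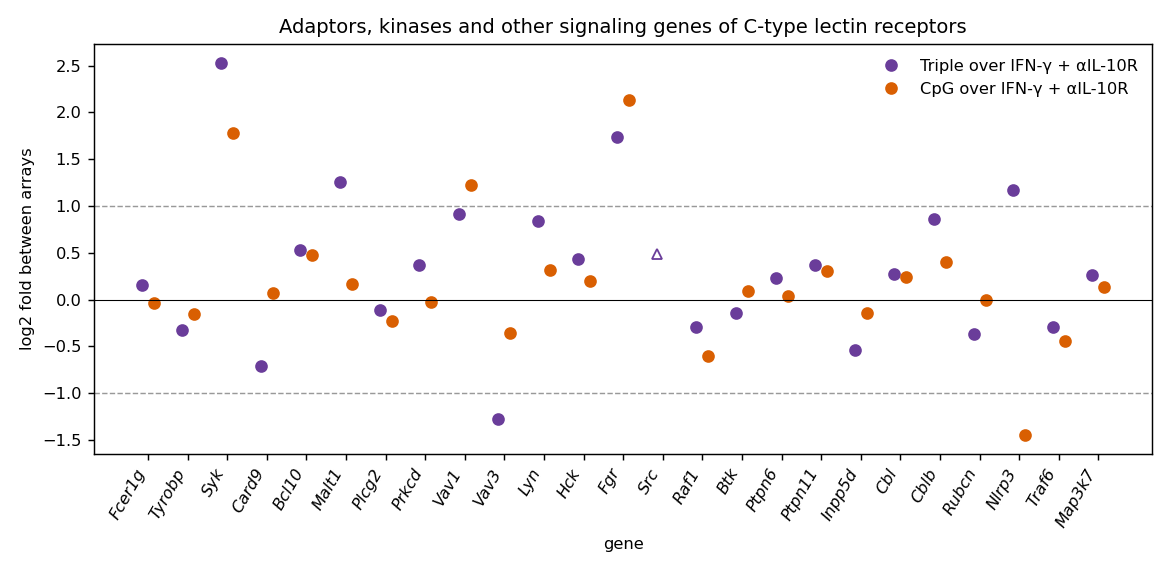
Log2 fold (y axis, scaled arrays) of 25 genes of the signaling chain of C-type lectin receptors for Triple over IFN-γ + αIL-10R and CpG over IFN-γ + αIL-10R; the open triangle is a lower bound and dashed lines mark 2-fold. Syk and Fgr lie above 2-fold in both comparisons, while the adaptor genes Fcer1g and Tyrobp lie near 0.

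Of 7 genes for endogenous ligands and membrane partners of the receptors, 1 was called in Triple over IFN-γ + αIL-10R. This was Anxa1, which encodes an annexin that Dectin-1 binds, with signals of 142991 in CpG, 52873 in IFN-γ + αIL-10R, and 162248 in Triple. Anxa1 was also called higher in CpG over IFN-γ + αIL-10R, where no other gene of the list was called, and no gene of it was called in Triple over CpG. Sap130, which encodes the nuclear protein that Mincle binds, had log2 folds between −0.14 and 0.04.

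Among 47 other genes with a C-type lectin domain, 29 were well above background on at least 1 array. Over IFN-γ + αIL-10R, 4 were called higher and 6 lower in Triple, and 9 higher and 5 lower in CpG. Between Triple and CpG, 4 were higher in Triple and 8 lower. These counts are not separate from those of the clusters above, since the list holds the paralogs of the Dectin-2 cluster and Clec9a. Clec4a1, Clec4a3, Clec4a4, and Clec4b1 are among those higher in CpG, and Clec4a1 and Clec4a4 among those higher in Triple over IFN-γ + αIL-10R. Clec4a3 and Clec4b1 are among those lower in Triple than in CpG. Over all genes, the shares called higher and lower were 3.53% and 5.00%, 2.75% and 3.18%, and 4.08% and 4.55% in these comparisons. The median log2 folds of these other lectin genes were −0.07, 0.14, and −0.10, so that neither direction prevailed as a median. The signal of Mrc1, the macrophage mannose receptor, was 5910 in CpG, 3274 in IFN-γ + αIL-10R, and 76.4 in Triple. Triple was the lowest array for Mrc1 as for Clec10a, and the log2 fold of Mrc1 between CpG and IFN-γ + αIL-10R was 0.83, short of 2-fold. The early activation antigen Cd69 had signals of 2049 in CpG, 1828 in IFN-γ + αIL-10R, and 15323 in Triple. Klrk1, which encodes the NKG2D receptor, had signals of 568 in IFN-γ + αIL-10R and 87.8 in Triple, and was not well above background in CpG. Cd207, which encodes langerin, had a signal of 265 in CpG and was not well above background on the other arrays.

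For each of the 7 members well above background on all arrays, the 3 genes with the most similar pattern were found. The search covered 10694 genes with a gene symbol that were also well above background on all arrays. It used the Euclidean distance over the 3 log2 values, each gene centred on its own mean and not scaled to the size of its folds. With 3 values per gene, close matches arise readily and say little. The nearest to Clec4d were St7 (distance 0.06), Irak3 (0.09), which encodes the TLR inhibitor IRAK-M, and Ets2 (0.29), an ETS family transcription factor. The nearest to Clec4n were Sdc1 (0.27), Gpr84 (0.31), and Pdpn (0.41), which encode syndecan-1, a fatty acid receptor, and podoplanin. Clec4e had no close match among the genes searched, where the nearest, Rasgrp1, Marco, and Cd200, lay 1.14 to 1.19 away. Genes that were not well above background in IFN-γ + αIL-10R, such as Il6, were not searched. Clec10a was nearest to Id1 (0.44), Lifr (0.72), and Ephx1 (0.73), and Mgl2 to Cytip (0.06), Vsig8 (0.08), and C1rb (0.09). For the less variable Clec7a and Clec12a, the nearest genes lay within 0.03 and 0.01, respectively, namely Zfyve26, Ctdsp2, and B3gntl1 for Clec7a and Wls, Deaf1, and Fundc1 for Clec12a.

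Markers of other cells that could be present in bone marrow cultures were read as well, and some of them moved with the conditions. Of 8 dendritic cell markers, 6 were well above background on at least 1 array and Flt3 and Cd209a on none. The summed signal of this list was 38395 in CpG, 39482 in IFN-γ + αIL-10R, and 34431 in Triple, most of it from Siglech. In Triple over IFN-γ + αIL-10R, 3 of the 8 were called higher (Zbtb46, Xcr1, and Ccr7) and 1 lower (Clec9a). In Triple over CpG, 4 were called higher (Zbtb46, Xcr1, Clec9a, and Ccr7) and 0 lower. CpG over IFN-γ + αIL-10R had 0 higher and 1 lower (Clec9a). These calls stand beside the values of Mgl2 and Clec10a, which dendritic cells also express. In Triple over CpG, Mgl2 was called higher and Clec10a lower. Ccr7 had signals of 319 in CpG, 225 in IFN-γ + αIL-10R, and 2892 in Triple. Of 12 neutrophil markers, 6 were well above background on at least 1 array, and Mpo, Prtn3, Ngp, Ltf, Retnlg, and Cxcr2 were on none. The summed signal of the neutrophil list was 4222 in CpG, 9564 in IFN-γ + αIL-10R, and 5191 in Triple, with Ly6g at 555, 7699, and 2658 in the same order. Against IFN-γ + αIL-10R, 3 neutrophil markers were called higher and 1 (Ly6g) lower in Triple, and likewise in CpG. Those called higher had the direction of Clec4e, Clec4d, and Clec4n, with log2 folds in Triple and CpG of 3.24 and 2.39 for S100a8 and at least 2.41 and 1.43 for Camp. The other was Mmp8, with signals of 340 in CpG, 83.8 in IFN-γ + αIL-10R, and 286 in Triple. Elane and S100a9 were not called against IFN-γ + αIL-10R. Elane had signals of 2839 in CpG, 1615 in IFN-γ + αIL-10R, and 1539 in Triple. S100a9 had signals of 58.0 in CpG and 38.3 in IFN-γ + αIL-10R. It was not well above background in Triple and was called lower there than in CpG, with a log2 fold of at least −1.08. Across the arrays, summed signals were 1042 to 1121 for T and NK cell markers, 237 to 974 for B cell markers, 332 to 629 for fibroblast markers, and 101 to 161 for mast cell and basophil markers. Each sum is to be read between arrays only. The fibroblast markers Lum and Col3a1 were called higher in Triple than in IFN-γ + αIL-10R, and the B cell marker Vpreb1 was called lower. Cd79b, another B cell marker, was called higher in CpG than in either other array. The part of such cells in the receptor values was not tested.

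**Figure D5:**
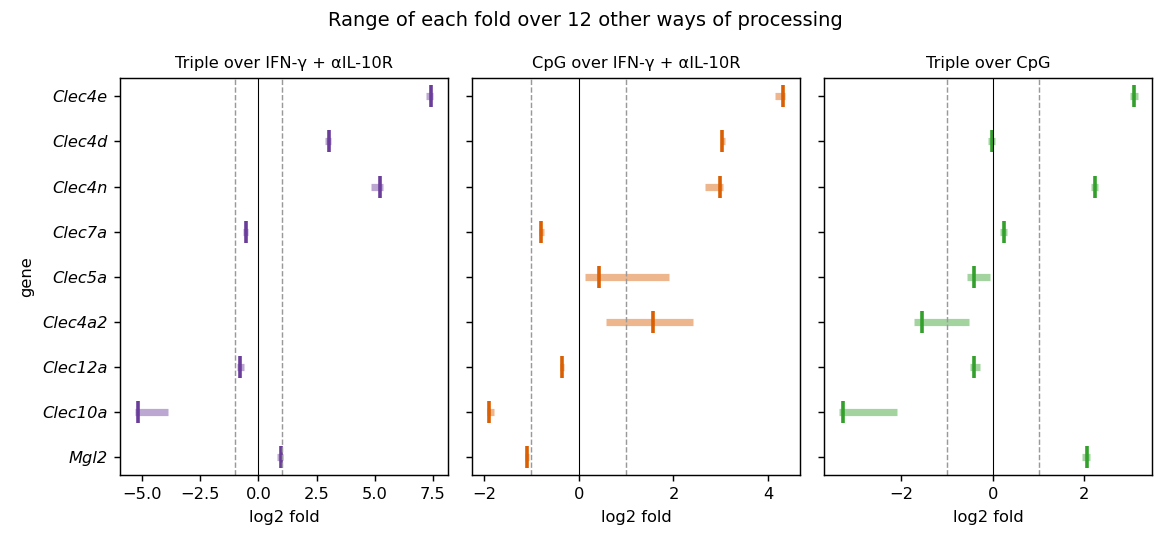
Range of each log2 fold (x axis) of the 9 genes over 12 other ways of scaling, background correction, and probe choice (pale bars), with the reported value as a vertical mark; dashed lines mark 2-fold. The bars are short for Clec4e, Clec4d, Clec4n, Clec7a, Clec12a, and Mgl2, and long for Clec5a and Clec4a2, which were dim, and for Clec10a, which was dim in Triple.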

How the data were processed

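The authors deposited, for each of the 3 arrays, the output of the scanner software Feature Extraction 10.10.1.1 (Agilent). The deposited processed signal is a linear intensity from which the software had subtracted a fitted background, with no scaling between arrays. A deposited log2 table holds the authors' own scaling of these arrays and served as an alternative. Controls and outlier-marked spots were omitted here, which left 52752 probes. To scale each array, the log2 of its 75th percentile was subtracted, taken over the 21233 probes that were well above background throughout (CpG 4550, IFN-γ + αIL-10R 4473, Triple 4377). No spot was saturated. A gene with several probes was represented by the probe with the highest mean. A dim signal was raised to the lowest signal well above background (23.8, 26.7, and 26.3 in the same order), which makes the fold a bound, and no fold was given where neither signal was well above background. The number of arrays, 1 per condition, limits the precision, and no p-value is given.

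The members and gene lists were chosen with earlier results of these data known. Every member is named. Some genes of the other lists are counted and not reported here by name. Of the other lists, up to 4 genes with the largest folds in each comparison could be named, with the adaptors, Syk, and Card9, neighbours in the clusters, and the 3 genes of the nearest pattern. Sap130, the cell type markers named, and the paralogs Clec4a1 and Clec4a3 were chosen after their values were seen. Of the 9 members' RefSeq accessions, 8 were found in a table of GRCm38.p6, and that of Clec7a was not. Probe positions are those of the array annotation on mm9, and promoters are on GRCm38.p6. The alternatives were other scalings, normexp correction (offset 50), background filters, ways to combine probes, outlier spots kept, and thresholds of 1.5-fold and 3-fold. The code was tested on simulated arrays. Calculations used Python 3.11.15, numpy 2.4.6, pandas 2.3.3, R 4.3.3, and limma 3.58.1.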

Additional observations from a re-analysis of the deposited data

How the results depend on the processing

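No fold past 2-fold changed sign under the 12 alternatives for folds, whereas that of Clec4d in Triple over CpG did under 4 of them (−0.11 to 0.06). Of 90 counts of members under the 15 alternatives for counts, 85 were within 1.5 times the reported count. Members called lower were 1 (Clec10a) in CpG over IFN-γ + αIL-10R at a 3-fold threshold, 1 (Clec10a) in Triple over CpG under normexp correction, with both signals required above background, and at 3-fold, and 2 (Clec10a and Clec12a) in Triple over IFN-γ + αIL-10R at 1.5-fold. The median of the members in CpG over IFN-γ + αIL-10R, which is the fold of the dim Clec5a, was 0.13 under normexp correction and 1.90 with no filter and no lower limit, and that in Triple over IFN-γ + αIL-10R was 0.82 under spike-in scaling. Mgl2 in Triple passed 2-fold over IFN-γ + αIL-10R under scaling by all probes (1.07), median scaling (1.06), and the authors' table (1.06), which made 4 members higher. Scaling moved the median of all genes in that comparison by 0.11 under each of these and by −0.13 under spike-in scaling. Genes called higher in it numbered 1187, and 2522 with no filter and no lower limit, 2410 at 1.5-fold, and 620 at 3-fold. No paired analysis was possible because the conditions, with 1 array each, shared fewer than 2 replicate numbers. Signal over background limits Clec5a, Clec4a2, and Clec10a in Triple, and the spread between cultures is unknown for all members.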

Other observations

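Of 13 transcription factors measured, 3 were called higher in Triple than in IFN-γ + αIL-10R, 2 lower, and 8 neither, against 3.53% higher and 5.00% lower of all genes. Cebpa, which encodes C/EBPα, had signals of 1399 in CpG, 1101 in IFN-γ + αIL-10R, and 214 in Triple. Cebpd, which encodes C/EBPδ, ran otherwise, with signals of 49209 in CpG, 9731 in IFN-γ + αIL-10R, and 27426 in Triple. Cebpa was thus low in Triple, and Cebpd was low in IFN-γ + αIL-10R.

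Of 16 genes known as markers of alternative activation, 9 were well above background on at least 1 array, and Arg1, Retnla, Cd163, Ccl17, Ccl22, Ccl24, and F13a1 were on none. In Triple over IFN-γ + αIL-10R, 1 was called higher (Klf4), 2 lower (Mrc1 and Folr2), and 13 neither. Between CpG and IFN-γ + αIL-10R, 1 was higher in CpG and 2 lower, and in Triple over CpG 3 were higher and 3 lower. The shares of all genes called higher and lower were 3.53% and 5.00%, 2.75% and 3.18%, and 4.08% and 4.55% in these comparisons. Tgm2, which encodes a transglutaminase, had signals of 8482 in CpG, 86441 in IFN-γ + αIL-10R, and 66919 in Triple. Folr2, a folate receptor, had signals of 44845, 48340, and 18236 in the same order.

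Of the 10 genes of the TLR response list, 8 were called higher in Triple than in CpG. Of the IFN-γ response list, 9 of 10 genes were called higher in that comparison. Ciita, the regulator of MHC class II genes, was the exception, with signals of 114 in CpG, 258 in IFN-γ + αIL-10R, and 63.3 in Triple.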
